A study of Homo sapiens with 4 samples.

Results

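The LIM homeobox loci of HaCaT cells were examined for trimethylated lysine 27 of histone H3 (H3K27me3), a mark of Polycomb-repressed chromatin. The set held 10 genes, LHX1, LHX2, LHX3, LHX4, LHX5, LHX8, LHX9, ISL1, ISL2 and LMX1B, each with 1 window in the human genome build hg19. A peak belonged to the set when it overlapped a window, which gave 32 of the 8890 peaks of the DMSO list and 29 of the 13155 peaks of the AKBA list. The genes were chosen by name with earlier results of the same peak lists in view, which had shown broad peaks at some of these positions. Presence, width and score of peaks in the windows are therefore a description, and no test was made on them. HaCaT cells are human keratinocytes, the main cells of the epidermis, that were immortalised in culture. The DMSO group is 1 H3K27me3 library from cells kept with the solvent DMSO, and the AKBA group is 1 such library from cells kept with AKBA, in both cases for 12 hours. AKBA is commonly the abbreviation of an acetylated boswellic acid, a reading that the labels do not give, and no dose is stated. The study's 4 samples also include 1 input DNA library per condition, from which no values were used. With 1 H3K27me3 library per condition, replicates cannot check any difference below. Read depth is unknown, and a position outside the lists may carry the mark below the threshold of the authors' peak caller.

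LIM homeobox proteins are transcription factors with a pair of zinc-binding LIM domains, which bind partner proteins, and a homeodomain, which binds DNA. They set cell fates in the nervous system, pituitary, limb, kidney, gonad and heart during development. Genes of this kind are known targets of Polycomb complexes in cell types that do not use them, and H3K27me3 there often spreads over the whole gene and its surroundings. Most members fall into pairs of close relatives: LHX1 with LHX5, LHX2 with LHX9, LHX3 with LHX4, and ISL1 with ISL2. The relatives of LHX8 and LMX1B, which are LHX6 and LMX1A, have no window and were not analysed here.

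The windows measured from 46 to 126 kb and 657 kb in all. As general knowledge of the build rather than a result of the files, each runs from about 20 kb before to about 20 kb after its gene. Exons, introns and start sites could not be placed, because no hg19 annotation was used. In the gene order of assembly GRCh38.p14, the protein-coding neighbours are MRM1 and AATF for LHX1, SDSL and RBM19 for LHX5, DENND1A and NEK6 for LHX2, C1orf53 and NEK7 for LHX9, TMEM250 and QSOX2 for LHX3, and QSOX1 and ACBD6 for LHX4. Whether a peak in an outer part of a window belongs to such a neighbour was not tested.

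Of the 10 loci 8 carried peaks in both lists, and the ISL1 and ISL2 windows carried none in either. Peaks covered 74.2 kb (11.3%) of the windows in the DMSO list and 93.5 kb (14.2%) in the AKBA list, a ratio of 1.26. Over the whole lists the same ratio was 1.94. Bases marked in both lists came to 67.5 kb, which was 90.9% of the DMSO bases in the windows and 72.3% of the AKBA bases. Over the whole lists the corresponding shares were 64.2% and 33.2%. The difference between these loci and the rest of the genome was not tested. In each of the 8 marked windows the AKBA list had the greater coverage. Of all 50 kb bins with a peak in either list, AKBA peaks covered more in 76.9%. The count of windows fell to 5 with peaks merged within 5 kb, where LHX1, LHX3 and LHX4 turned, and to 5 in the inner part of the windows, where LHX1, LHX2 and LHX3 turned.

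**Figure D1:**
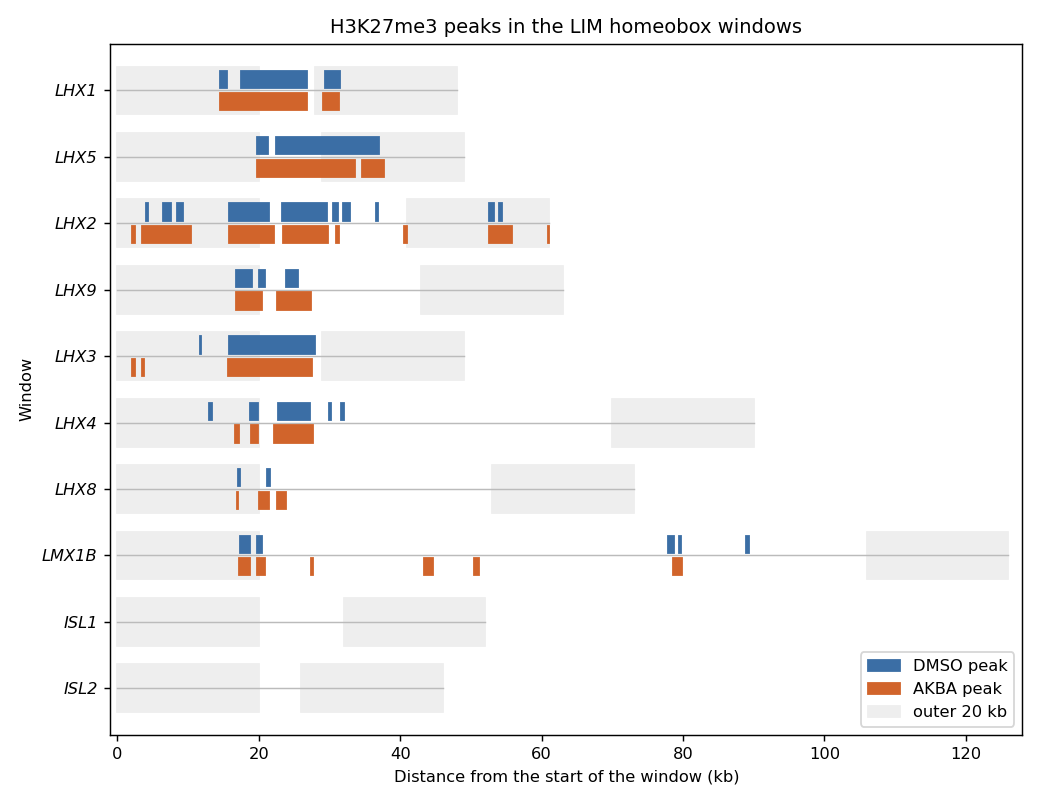
Peaks of the DMSO list (blue, upper) and the AKBA list (orange, lower) in each window, drawn by distance in kb from the window's start, with the outer 20 kb of each window in grey. Bases in both lists make up 83.4%, 84.5% and 88.6% of all marked bases at LHX1, LHX5 and LHX3 and 66.6% at LHX4, and the ISL1 and ISL2 windows hold no peak.

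The coverage separated 4 densely marked loci from the others. LHX5, LHX2, LHX1 and LHX3 had 33.0%, 28.7%, 26.2% and 25.2% of their window in DMSO peaks. LHX9 followed with 7.51%, LHX4 with 7.35%, LMX1B with 2.93% and LHX8 with 0.818%. In the AKBA list LHX2 came first with 40.1%, before LHX5 with 34.5%, LHX1 with 30.4% and LHX3 with 25.8%. LHX9 then had 13.7%, LHX4 7.83%, LMX1B 5.07% and LHX8 3.87%. The same 4 genes led both orders. With 1 library per condition no spread is known, so neighbours in these orders cannot be told apart. The windows were also set beside the 50 kb bins with a peak in either list. The genes were taken up with broad peaks known, so nothing is read from their place among the bins. Bins also cut peaks at fixed borders, whereas the windows surround genes and differ in length. LHX5 exceeded 99.98% of bins in the DMSO list and 99.7% in the AKBA list. LHX2 exceeded 99.9% of bins in both lists, whereas LHX8 exceeded 55.0% and 73.0%. A bin with peaks of only 1 list counted as 0% covered in the other, which raises these shares. The shares of the 2 lists therefore have unlike bases. The widest LHX8 peak with DMSO, of 353 bp, was narrower than the DMSO list's median of 552.5 bp.

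**Figure D2:**
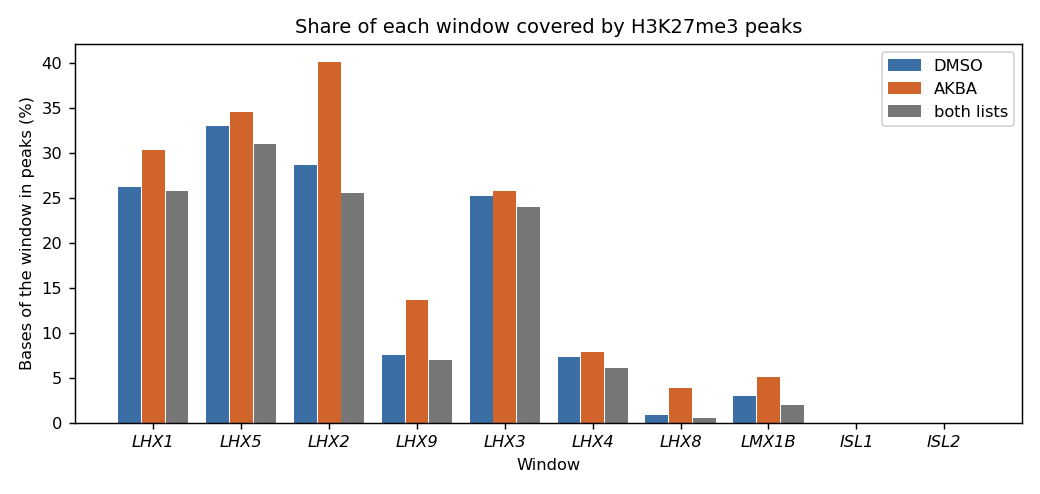
Percent of each window's bases inside DMSO peaks (blue), inside AKBA peaks (orange) and inside peaks of both lists (grey), 1 library per condition. LHX1, LHX5, LHX2 and LHX3 stand above 25% in both lists, and the other windows stay below 14%.

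Promoter sequences from RefSeq (build GRCh38.p14) were set beside these values, because CG dinucleotides cluster at promoters that Polycomb complexes bind. The table matched 8 of the 10 genes, and LHX1 and LHX5 had no entry. Shown are the 250 bases before the annotated start of 2 genes with peaks in their window, LMX1B and LHX4, and of the 2 genes without, ISL1 and ISL2. Their positions are those of GRCh38.p14 and cannot be set against the hg19 positions of the peaks. Letters are lower case except CG dinucleotides, which are in capitals.
LMX1B, chr9:126613678-126613927, plus strand: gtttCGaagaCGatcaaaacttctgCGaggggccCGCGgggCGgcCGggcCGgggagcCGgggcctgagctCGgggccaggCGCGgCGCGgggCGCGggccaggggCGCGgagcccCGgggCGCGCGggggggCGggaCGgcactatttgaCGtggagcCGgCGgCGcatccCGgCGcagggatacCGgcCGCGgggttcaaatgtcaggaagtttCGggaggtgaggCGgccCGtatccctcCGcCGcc
LHX4, chr1:180230014-180230263, plus strand: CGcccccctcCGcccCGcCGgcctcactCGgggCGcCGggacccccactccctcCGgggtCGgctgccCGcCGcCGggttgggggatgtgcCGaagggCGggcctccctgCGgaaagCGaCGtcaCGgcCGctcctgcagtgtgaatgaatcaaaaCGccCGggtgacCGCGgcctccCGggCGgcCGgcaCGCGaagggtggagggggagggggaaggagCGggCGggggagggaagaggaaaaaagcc
ISL1, chr5:51383198-51383447, plus strand: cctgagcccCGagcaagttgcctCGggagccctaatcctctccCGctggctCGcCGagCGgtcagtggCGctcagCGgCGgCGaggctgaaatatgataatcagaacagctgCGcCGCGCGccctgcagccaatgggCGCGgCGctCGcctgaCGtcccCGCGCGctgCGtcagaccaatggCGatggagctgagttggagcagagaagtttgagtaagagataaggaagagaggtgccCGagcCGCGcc
ISL2, chr15:76336523-76336772, plus strand: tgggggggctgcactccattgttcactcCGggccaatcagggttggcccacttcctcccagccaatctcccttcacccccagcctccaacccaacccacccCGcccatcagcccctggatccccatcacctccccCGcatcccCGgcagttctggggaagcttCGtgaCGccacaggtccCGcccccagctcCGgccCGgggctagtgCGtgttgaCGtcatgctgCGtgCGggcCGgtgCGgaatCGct
The LMX1B promoter held 38 CG dinucleotides, a number that 3.28% of the 35114 promoters of the table reached, and the LHX4 promoter held 30 (12.4%). ISL1 had 27 (17.7%) and ISL2 had 16 (41.0%), against a median of 11 over the table. The single LHX2 start had 25, the 3 LHX3 starts 26, 34 and 34, the 2 LHX9 starts 20 and 14, and the 2 LHX8 starts 12 and 4. The peak-free genes ISL1 and ISL2 thus lay within the range of the genes with peaks. Among the marked genes, the most sparsely covered, LHX8, had the start with the fewest CG dinucleotides, but the next, LMX1B, had the most. A relation between CG number and marking was not tested. These counts describe the letters and say nothing of what binds there.

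LHX1, needed for head and kidney formation, and LHX5, a regulator of forebrain development, both carried the mark across most of the middle of their window. At LHX1, in the window on chromosome 17 from 35274 to 35322 kb, 12.6 kb lay in 3 DMSO peaks and 14.6 kb in 2 AKBA peaks. The AKBA peak from 35288481 to 35300766 measured 12286 bp and ranked 14 by width in its list. It spanned DMSO peaks of 1070 and 9379 bp and the 1933 bp between them. The outer edges of this stretch differed by 4 bp on the left and 92 bp on the right. A smaller peak beyond it measured 2148 bp with DMSO and 2286 bp with AKBA. The LHX1 peaks of the 2 lists therefore had the same outline, and the difference of 1.98 kb came mostly from the filled break. In the inner 8 kb of the window, 20 kb from both ends, DMSO peaks covered 85.7% and AKBA peaks 84.6%.

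At LHX5, in the window on chromosome 12 from 113881 to 113930 kb, 16.2 kb lay in 2 DMSO peaks and 16.9 kb in 2 AKBA peaks, a ratio of 1.05. The break lay elsewhere in each list. DMSO peaks ran from 113900715 to 113902299 and from 113903489 to 113918076, the latter the widest of its list at 14588 bp. AKBA peaks ran from 113900755 to 113914662, the sixth widest of its list at 13908 bp, and from 113915643 to 113918653. The 2 outlines started 40 bp apart and ended 577 bp apart. The AKBA peak of 13908 bp alone covered 100% of the inner 9 kb of the window, against 86.8% for DMSO peaks. The DMSO break lay inside this inner part and the AKBA break outside it. The widest DMSO peak had a moderate score of 3.78, above 76.2% of its list. Score here is the authors' value per peak on a scale that is not given. It was used to rank peaks within a list and, in 2 alternative settings, to filter. The score minimum cut both lists, and equal peak numbers cut the longer AKBA list.

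LHX2, a factor of eye and forebrain development that also maintains hair follicle stem cells, had the most peaks, and its close relative LHX9, needed for gonad formation, had far fewer. The LHX2 window on chromosome 9 from 126754 to 126815 kb held 10 DMSO peaks over 17.5 kb and 8 AKBA peaks over 24.5 kb, a difference of 6.96 kb. Its 2 central stretches were close to equal, with DMSO peaks of 5626 and 6428 bp against AKBA peaks of 6336 and 6348 bp. The difference lay toward the ends. Near the left end an AKBA peak of 6950 bp, from 126757510 to 126764459, spanned 3 DMSO peaks of 245, 1107 and 881 bp. Near the right end an AKBA peak of 3329 bp spanned DMSO peaks of 683 and 488 bp. In the inner 21 kb the order turned, with 9.92 kb in DMSO and 9.46 kb in AKBA peaks. Another AKBA peak crossed the right end of the window, and its DMSO counterpart began 0.6 kb outside. DMSO peaks of 943 and 385 bp and AKBA peaks of 394 and 451 bp had no counterpart.

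At LHX9, on chromosome 1 from 197862 to 197925 kb, 4.73 kb lay in 3 DMSO peaks and 8.63 kb in 2 AKBA peaks, a ratio of 1.82. All 5 peaks overlapped a peak of the other list. The AKBA peak from 197884526 to 197889409 measured 4884 bp and contained a DMSO peak of 1712 bp, extending past it by 1355 bp on the left and 1817 bp on the right. These were the widest edge differences on either side at any of the loci. The other AKBA peak of 3745 bp spanned DMSO peaks of 2157 and 861 bp and ended 366 bp before the latter. The 861 bp DMSO peak had the highest DMSO score of the set, 6.57, above 99.0% of its list.

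LHX3 and LHX4, which act together in pituitary development, differed in how much of their window was marked. LHX3, on chromosome 9 from 139068 to 139117 kb, carried 1 broad peak in each list. It ran from 139083801 to 139095982 with DMSO and from 139083727 to 139095538 with AKBA, with widths of 12182 and 11812 bp. The shared bases were 96.4% of the DMSO peak and 99.4% of the AKBA peak, and the AKBA peak scored 8.31, above 99.2% of its list. Besides this peak the window held a DMSO peak of 169 bp and AKBA peaks of 479 and 342 bp. The window total was 12.4 kb with DMSO and 12.6 kb with AKBA. That small excess rested on the narrow peaks, since the broad peak itself was 370 bp narrower with AKBA, and its direction turned under 5 of 7 other settings.

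LHX4, on chromosome 1 from 180179 to 180269 kb, had a stretch of 4479 bp with DMSO and 5434 bp with AKBA, and a narrower peak before it. The narrower peak measured 1072 and 1090 bp. With AKBA it had the highest AKBA score of the set, 10.3, which ranked 24 in the AKBA list, and with DMSO its score of 4.71 was above 91.6% of the list. Scores of different lists were not compared. The window totals were 6.62 kb with DMSO and 7.04 kb with AKBA. DMSO peaks of 399, 236 and 429 bp and an AKBA peak of 519 bp stood alone, and the direction of the total turned under 2 of 7 settings.

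LHX8, a factor of cholinergic forebrain neurons and oocytes, and LMX1B, which patterns the dorsal limb and acts in kidney podocytes, carried no peak wider than 1571 bp. At LHX8, on chromosome 1 from 75574 to 75647 kb, DMSO peaks of 244 and 353 bp covered 0.597 kb. AKBA peaks of 214, 1442 and 1166 bp covered 2.82 kb, a ratio of 4.73 on a small base. The widest of them contained 279 bp of the wider DMSO peak, and the peak of 1166 bp, with a score of 4.94, had no DMSO counterpart. The AKBA peaks of 214 and 1442 bp scored 2.19 and 2.79, above 6.50% and 40.8% of their list. The DMSO peaks scored 2.51 and 3.48, above 23.2% and 67.9% of theirs. With scores of at least 3 in both lists, the difference fell from 2.225 to 0.813 kb.

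At LMX1B, on chromosome 9 from 129357 to 129483 kb, 3.69 kb lay in 5 DMSO peaks and 6.38 kb in 6 AKBA peaks. A cluster of 2 peaks in each list lay between 17.2 and 20.9 kb from the window's start. The first pair, of 1365 bp with DMSO and 1571 bp with AKBA, ended on the same base, 129375781. The next pair measured 742 and 1209 bp, and the AKBA peak scored 9.60, which ranked 45 in its list. Farther on, AKBA peaks of 293, 1282 and 726 bp and a DMSO peak of 488 bp had no counterpart. These AKBA peaks scored 2.73, 2.73 and 2.20, above 37.6%, 37.5% and 6.82% of their list. The DMSO peak scored 3.52, above 68.7% of its list. With scores of at least 3 in both lists, the difference of the window fell from 2.69 to 1.49 kb. An AKBA peak of 1302 bp overlapped 438 bp of DMSO peaks of 767 and 327 bp.

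ISL1, a factor of motor neurons, pancreatic islets and cardiac progenitors, and ISL2, a factor of motor and sensory neurons, had no peak in windows of 52 and 46 kb. The deposited peak numbers run without a gap in both lists. From the ISL1 window on chromosome 5, 50659 to 50711 kb, the nearest DMSO and AKBA peaks were both 393 kb away. From the ISL2 window on chromosome 15, 76609 to 76655 kb, the nearest DMSO peak was 255 kb and the nearest AKBA peak 171 kb away. At these distances, widening both windows by 20 kb at each end could add no peak. Of the 50 kb bins between the first and last peak of each chromosome, 85% held no peak in either list. These bins were not chosen to hold genes of this kind, whereas 8 of the 10 windows here carried peaks. The expression of ISL1 and ISL2 was not measured.

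By the distance over percent covered with DMSO, with AKBA and in both lists, the nearest member to LHX1 was LHX3 (5.02 percentage points), to LHX2 was LHX5 (8.86), to LHX4 was LHX9 (5.94) and to LHX8 was LMX1B (2.86). Each relation was mutual. The percents depend on window length, which differed between members. Among the pairs of relatives, ISL1 and ISL2 were each other's nearest, with a distance of 0 because both windows were empty. The marked pairs of relatives were not each other's nearest.

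Sharing and width of the single peaks were counted over all windows. Of the 32 DMSO peaks 25 shared at least 1 bp with an AKBA peak (78.1%, exact 95% Clopper-Pearson interval 60.0 to 90.7%), against 54.5% of the whole DMSO list. Of the 29 AKBA peaks 20 shared bases with a DMSO peak (69.0%, interval 49.2 to 84.7%), against 32.2% of the whole AKBA list. With a reciprocal overlap of at least 50% the shares were 34.4% and 37.9%, and among peaks of at least 1 kb they were 100% and 70.0%. The intervals cover counting error only and treat peaks of a window as independent, which they are not. Peaks of at least 5 kb numbered 5 of 32 with DMSO (15.6%), against 0.787% of the list, and 7 of 29 with AKBA (24.1%), against 1.84%. Since these genes were taken up with broad peaks known, nothing is read from those counts or from the overlap shares beside the whole lists. All 5 DMSO peaks of that width lay at LHX1, LHX5, LHX2 and LHX3, and the 7 AKBA peaks lay there and at LHX4.

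**Figure D3:**
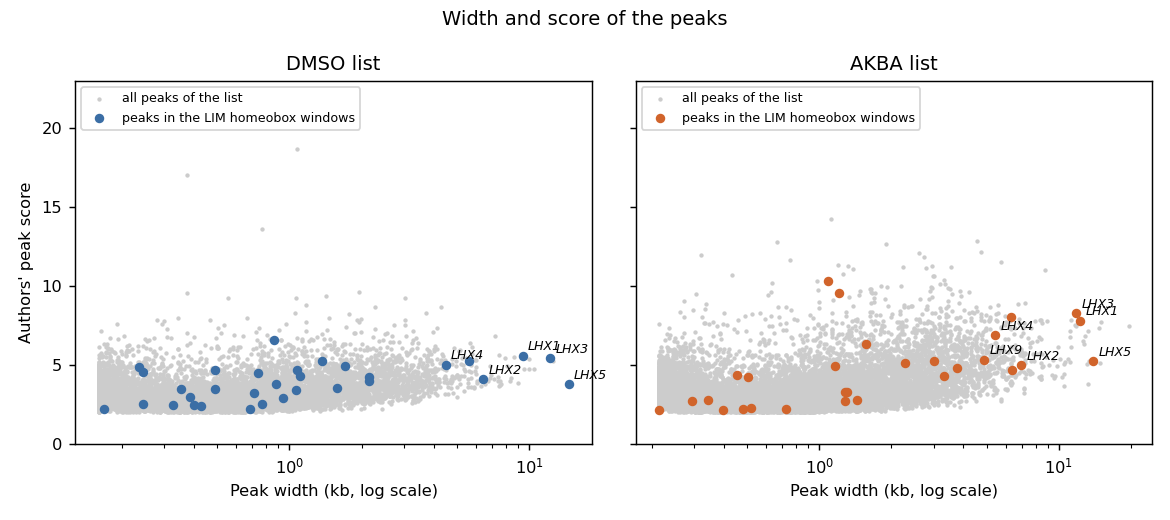
Width in kb (log scale) against the authors' peak score for all peaks of each list (grey) and for those in the LIM homeobox windows (colour), with the widest peak of a window named where it reaches 4 kb. The score axes of the panels may not share a scale. The widest DMSO peak, at LHX5, has a score of 3.78, and the AKBA peaks of highest score in the windows, 10.3 and 9.60, are near 1 kb wide.

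Some breaks between the peaks of a list were filled by a peak of the other list. Several DMSO peaks lay under the same AKBA peak in 6 of 29 cases, against 4.43% of the whole AKBA list, at LHX1, LHX2 (2 peaks), LHX5, LHX9 and LMX1B. The reverse, several AKBA peaks under the same DMSO peak, was found in 1 of 32 cases, at LHX5, against 0.945% of the whole DMSO list. These 6 AKBA peaks measured from 1302 to 13908 bp, against a median width of 742 bp over the AKBA list. Since the genes were taken up with broad peaks known, nothing is read from either count beside its list. The 6 AKBA peaks filled 7 DMSO breaks. The breaks at LHX1 (1933 bp), LHX5 (1189 bp), LHX9 (1025 bp) and one at LHX2 (2187 bp) exceeded 857 bp, which is the narrowest gap between neighbouring AKBA peaks in the genome. The breaks of 835 and 670 bp at LHX2 and of 704 bp at LMX1B were shorter than any AKBA gap, whereas DMSO gaps went down to 641 bp. The narrowest peak measured 160 bp in the DMSO list and 214 bp in the AKBA list. After DMSO gaps of at most 856 bp were closed and the peaks widened by 54 bp, AKBA peaks still covered more bases in 8 windows, with a ratio of 1.18.

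The outer edges of marked stretches were compared next. Chains of overlapping peaks formed 19 stretches with peaks of both lists, which have 38 outer edges. The AKBA edge lay farther out at 23, the DMSO edge at 14, and 1 coincided. Over all 4143 such stretches of the genome the AKBA edge lay farther out at 65.1% of edges, against 60.5% here. The median distance between the edges was 207 bp at the LIM homeobox loci and 316 bp over the genome, and 12 of the 38 edges (31.6%, against 22.3% over the genome) were within 100 bp. Nothing is read from these values beside the genome, because the genes were taken up with broad peaks known. Edges of the same window are also not independent. The largest distances were at LHX9, LHX2 and LHX8, and both edges of the broad LHX1 stretch were within 100 bp.

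**Figure D4:**
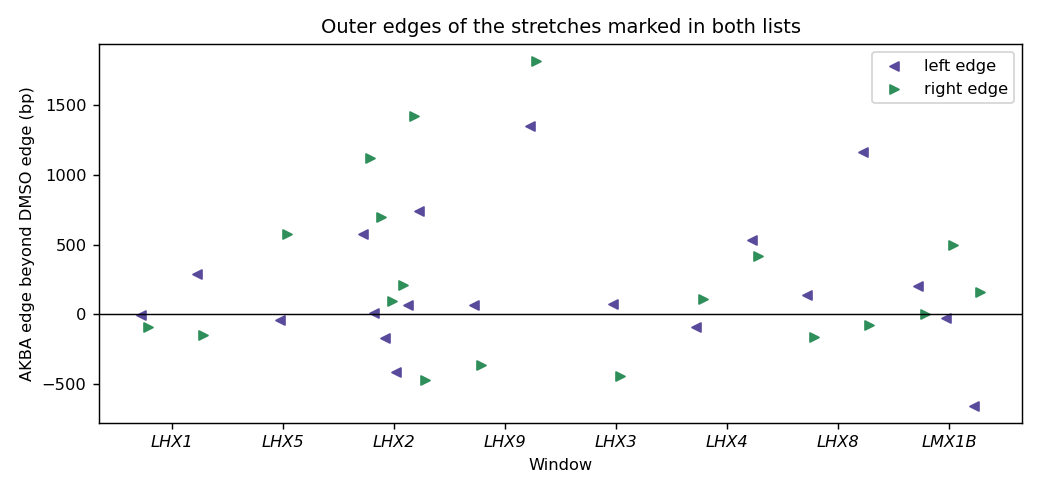
Distance in bp by which the AKBA edge lies outside the DMSO edge (above 0) or inside it (below 0) for the left and right ends of the 19 stretches marked in both lists. Edges at LHX1 lie within 286 bp of each other, and the right edge of an LHX9 stretch lies 1817 bp farther out with AKBA.

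The ratio of AKBA to DMSO bases ran over a wide range among the marked members. It was 1.02 at LHX3, 1.05 at LHX5, 1.06 at LHX4, 1.16 at LHX1 and 1.40 at LHX2. At LMX1B it was 1.73, at LHX9 1.82 and at LHX8 4.73, where DMSO peaks covered 0.597 kb. LHX4 thus had a ratio near 1 with 7.35% of its window in DMSO peaks, close to the 7.51% of LHX9. These windows differ in length, 90 kb at LHX4 and 63 kb at LHX9, and DMSO peaks covered 6.62 and 4.73 kb.

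**Figure D5:**
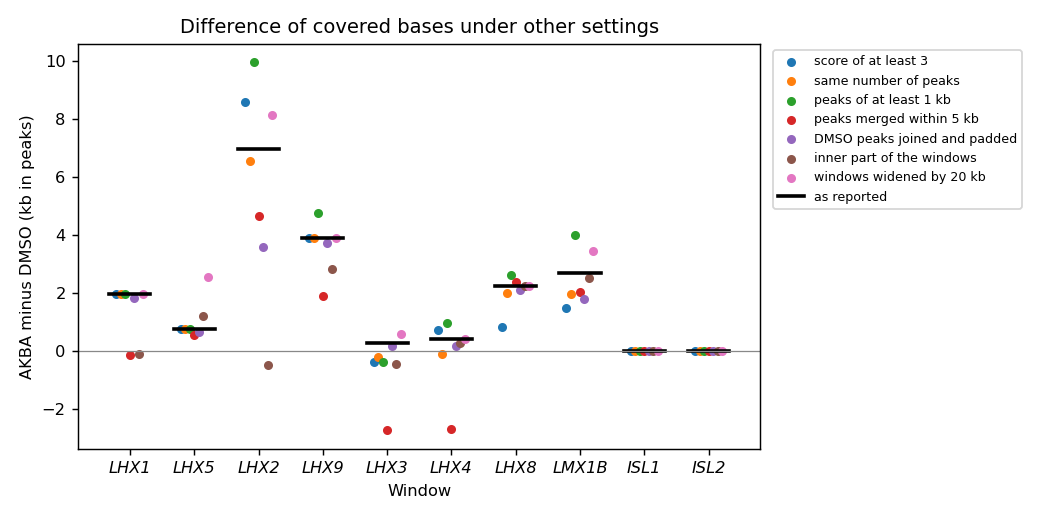
AKBA minus DMSO bases in peaks (kb) for each window as reported (black line) and under 7 other settings (points). LHX5, LHX8, LHX9 and LMX1B stay above 0, LHX1, LHX2, LHX3 and LHX4 cross it, and the ISL1 and ISL2 windows stay at 0.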

How the data were processed

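H3K27me3 ChIP-seq was deposited for 2 HaCaT libraries as 1 peak list each. Per the submitters' processing notes the build was hg19 and the tools named, without versions, were BWA, STAR and MACS2. No source used here states the use of the input, the threshold or the handling of duplicates. The authors deposited 1 score per peak, whose scale is not stated, and it served only to rank and filter peaks. Depth is unknown.

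Peaks overlapping the windows were taken with pandas 2.3.3 and numpy 2.4.6 in Python 3.11.15, intervals came from scipy 1.17.1, and bases were cut at the window ends. Overlaps of at least 1 bp were tested on simulated data and checked with bedtools 2.31.1. Bins of 50 kb served as the background. Members, lists and settings were chosen with earlier results of these data known. All 10 genes were named, with their widest, highest-scoring, bridging and unshared peaks. Likeness is the Euclidean distance over 3 coverage values. The alternatives were a score minimum, equal peak numbers, a minimum width, merging, joined DMSO peaks, other windows and other overlap definitions. Proteins were not analysed here.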

Additional observations from a re-analysis of the deposited data

How the results depend on the processing

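With 1 library per condition and unknown depth, the settings test only the handling of the lists. More AKBA than DMSO bases were found in 8 windows as reported. The count was 5 with peaks merged within 5 kb and 5 in the inner part of the windows, which leaves out 20 kb at both ends, and 6 to 8 under the other settings. The ratio of bases kept its direction throughout, from 1.05 with merged peaks to 1.38 with peaks of at least 1 kb. Of the DMSO peaks 100% overlapped an AKBA peak when both lists were cut to peaks of at least 1 kb, and 34.4% did at a reciprocal overlap of 50%. Of the AKBA peaks 85.0% overlapped a DMSO peak with scores of at least 3, which assumes the same scale in both lists, and 37.9% at the reciprocal overlap. The other settings stayed within the counting intervals. Single windows changed direction as follows, in kb (AKBA minus DMSO). With merged peaks LHX1 had -0.15, LHX3 -2.74 and LHX4 -2.68. In the inner part LHX1 had -0.092, LHX2 -0.47 and LHX3 -0.44. With the same number of peaks LHX3 had -0.20 and LHX4 -0.091. LHX3 had -0.37 both with scores of at least 3 and with peaks of at least 1 kb. The causes of these changes were not tested. No paired analysis was possible because each condition has 1 library.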
